A study of Gallus gallus with 6 samples.

Results

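The genes described are enzymes that make or break down arginine or its product ornithine, together with IL4I1, an oxidase of aromatic amino acids. They were measured in the ileum of Taiping chickens aged 2 months. They were chosen by symbol, and 7 of the 8 symbols named (ASS1, IL4I1, NOS2, ARG2, OAT, ODC1 and GATM) were found among the 17623 genes of the table. IDO1, the eighth, was not analysed here. Of the 7, 6 were among the 13774 genes that passed the low-count filter, and GATM did not pass it. The list was drawn up with the difference between the diets in these libraries already known, so the diet values of the 7 genes are given as a description, with no test, and support nothing by themselves.

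The 3 MP_FOS libraries were made from chickens fed corn and soybean as a basal diet and given, in each litre of water, 2 mL of probiotics and 1 mL of fructo-oligosaccharide (FOS, a chain of fructose units used as feed for gut bacteria). The 3 CT libraries were made from chickens on the basal diet alone. All 6 libraries are labelled Taiping, male and 2 months old. The design asks how the supplement changes transcript levels in the ileum. The labels number the replicates without saying that each is a separate bird, so errors measure the spread between these samples, which may be technical in part. In bulk tissue, fewer cells of a type and less RNA per cell cannot be told apart.

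Arginine stands at a branch point. ASS1 joins citrulline to aspartate and ASL splits the product into arginine and fumarate. Arginine is then used by the nitric oxide synthases, which return citrulline, by the arginases, which give ornithine, and by GATM, which starts creatine synthesis. Ornithine goes to polyamines through ODC1 or towards glutamate and proline through OAT. Birds excrete nitrogen as uric acid and need arginine from their food. IL4I1 oxidises phenylalanine and other aromatic amino acids, and in mammals it is made by antigen-presenting cells and B cells.

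The libraries held 17250856, 17687232 and 11833015 counts in MP_FOS replicates 1, 2 and 3, and between 16056240 and 18106651 in the CT libraries, so that 1 count was worth 0.0531 to 0.0843 normalised CPM (a count over the TMM-adjusted total of its library). All 10 enterocyte markers passed the filter, among them FABP6, the ileal bile acid binding protein. The libraries did not all carry the sex on their labels: Wpkci-7, the W-linked HINTW that hens carry and cocks lack, had 2047, 0 and 1846 reads in MP_FOS replicates 1, 2 and 3 and 2438, 3 and 2804 reads in CT replicates 1, 2 and 3. Replicate 2 of each diet, nearly without these reads, therefore did not come from the same bird as replicates 1 and 3. The spread between replicates within each diet includes this difference in W-linked reads. With both replicates numbered 2 left out, ASS1, NOS2, IL4I1 and ODC1 still had log2 fold changes above 0 (1.32, 0.94, 2.25 and 0.46). ARG2 and OAT then had log2 fold changes of −0.89 and −0.04.

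ASS1, NOS2, IL4I1 and ODC1 shared one pattern: MP_FOS replicates 2 and 3 stood above the other 4 libraries, and MP_FOS replicate 1 stood near CT. ARG2 was lower in each MP_FOS library than in any CT library, and OAT and GATM showed no separation of the diets. Of the 13774 genes tested, 0 passed edgeR's quasi-likelihood test at an adjusted p of 0.05 (Benjamini-Hochberg, BH; 0% of genes), 1457 (10.6%) had an unadjusted p under 0.05, DESeq2 called 105 (0.762%) and limma-voom called 0. Over all tested genes 15.7% had MP_FOS replicates 2 and 3 above the other 4 libraries, as 4 of the 6 tested members did. The libraries of the 2 diets did not overlap in 16.7% of all tested genes (8.20% higher and 8.49% lower in MP_FOS), and in 2 of the 6 members, ASS1 (higher) and ARG2 (lower). Of the 6 members 4 had a log2 fold change above 0, as did 51.5% of all tested genes. The median log2 fold change was 0.85 over the 6 members and 0.01 over all tested genes, and as the members were chosen on this contrast nothing is read from that gap.

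**Figure D1:**
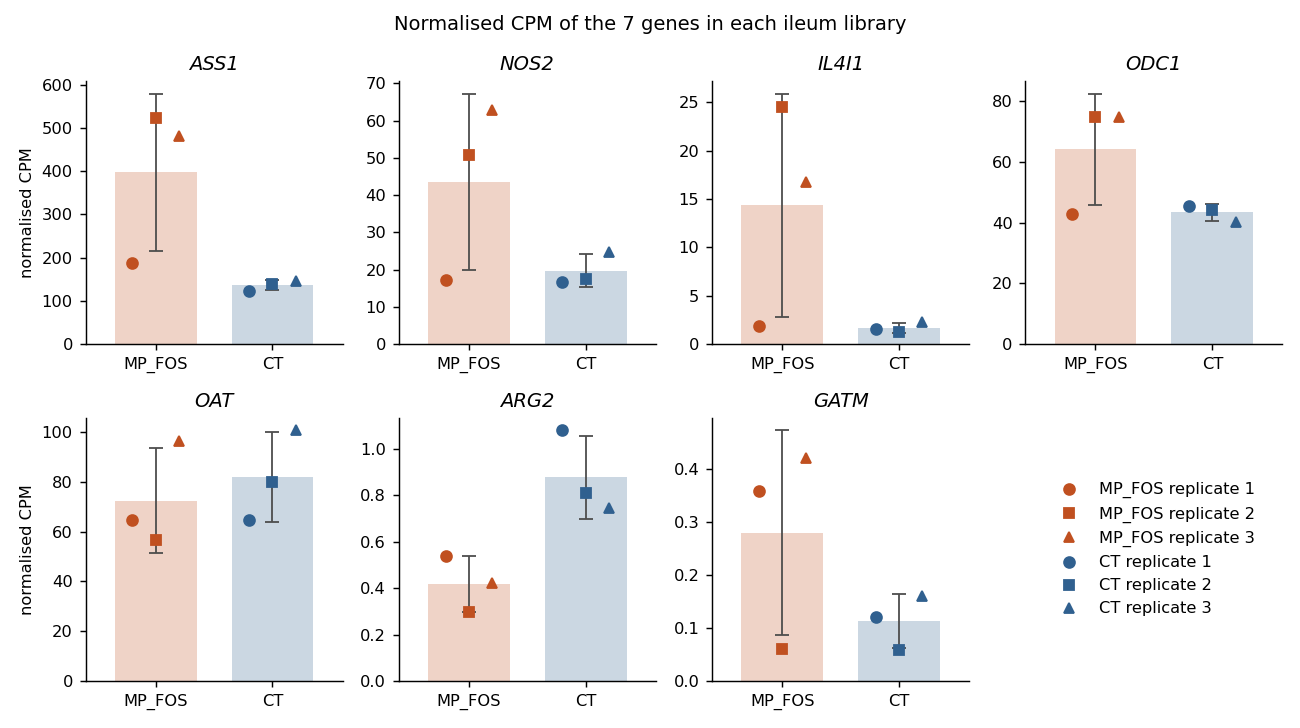
Normalised CPM (vertical axes, each starting at 0) of the 7 genes in MP_FOS (left, orange) and CT (right, blue); bars are means over 3 libraries, whiskers ± SD, and symbols single libraries. For ASS1, NOS2, IL4I1 and ODC1 the square and triangle of MP_FOS (replicates 2 and 3) lie above all other points, and for ARG2 all 3 MP_FOS points, at 0.297 to 0.537 CPM, lie below the CT points.

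ASS1 (ENSGALG00000023689), argininosuccinate synthase, makes the direct precursor of arginine from citrulline. It had 188, 523 and 481 CPM in MP_FOS replicates 1, 2 and 3 and 123, 139 and 146 CPM in CT replicates 1, 2 and 3. All 3 MP_FOS libraries lay above the 3 CT libraries, but replicate 1 was 1.38 times the CT mean, where replicates 2 and 3 were 3.84 and 3.54 times. The means were 397 ± 183 CPM in MP_FOS and 136 ± 11.7 CPM in CT (SD, n = 3 each), a log2 fold change of 1.55 ± 0.36 (MP_FOS over CT, edgeR, SE). With 1 library left out in turn the log2 fold change was lowest, at 1.30, without MP_FOS replicate 2 and highest, at 1.88, without MP_FOS replicate 1.

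ASL, argininosuccinate lyase, the enzyme that follows ASS1, is the gene the table calls ASL2 (ENSGALG00000002576). ASL had 15.9, 45.3 and 68.3 CPM in MP_FOS replicates 1, 2 and 3, against 27.5, 16.6 and 21.1 CPM in CT replicates 1, 2 and 3. The diets overlapped, since MP_FOS replicate 1 was the lowest of the 6 libraries, and the log2 fold change was 0.98 ± 0.48 (SE). ASL was named after its values were seen. A second locus, ASL1 (ENSGALG00000002558), holds a closely related sequence with at most 29.0 reads in a library, and some of its counts are not whole numbers, so reads may be split between the loci. In FPKM, which is scaled to transcript length, ASS1 stood at 16.3, 15.9 and 9.76 times ASL in the MP_FOS libraries and at 6.18, 11.5 and 9.54 times in the CT libraries.

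NOS2 (ENSGALG00000038096), the inducible nitric oxide synthase, makes nitric oxide in activated macrophages and epithelium. It had 17.1, 50.7 and 62.9 CPM in MP_FOS replicates 1, 2 and 3 and 16.8, 17.6 and 24.8 CPM in CT replicates 1, 2 and 3. Replicates 2 and 3 of MP_FOS were 2.57 and 3.19 times the CT mean, and replicate 1 lay inside the CT range. The means of 43.6 ± 23.7 CPM in MP_FOS and 19.7 ± 4.39 CPM in CT (SD, n = 3 each) gave a log2 fold change of 1.14 ± 0.44 (SE). It was lowest, at 0.78, without MP_FOS replicate 3 and highest, at 1.52, without MP_FOS replicate 1.

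IL4I1 (ENSGALG00000000081) had the widest range of the 7 genes relative to its CT level. Its reads numbered 31, 413 and 199 in MP_FOS replicates 1, 2 and 3 and 26, 22 and 43 in CT replicates 1, 2 and 3. This made 1.85, 24.5 and 16.8 CPM in MP_FOS and 1.56, 1.28 and 2.28 CPM in CT. MP_FOS replicate 1 sat inside the CT range, while replicates 2 and 3 were 14.4 and 9.83 times the CT mean. The log2 fold change was 3.06 ± 0.83 (SE), the 14th highest of the 13774. It was 2.43 without MP_FOS replicate 2 and 3.58 without MP_FOS replicate 1. It also depended on the fit for size: 2.38 in limma-voom and 1.72 on log2(FPKM + 1), which compresses low values.

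ODC1 (ENSGALG00000016444), ornithine decarboxylase, catalyses the first and rate-limiting step to polyamines, which dividing epithelium needs. It had 43.1, 74.8 and 74.8 CPM in MP_FOS replicates 1, 2 and 3, against a narrow 45.7, 44.4 and 40.2 CPM in CT replicates 1, 2 and 3. MP_FOS replicates 2 and 3 both stood at about the same level above CT, and replicate 1 was at 0.992 times the CT mean. The log2 fold change was 0.57 ± 0.22 (SE).

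OAT (ENSGALG00000031158), ornithine aminotransferase, links ornithine to glutamate and proline in mitochondria. It had 64.5, 56.5 and 96.3 CPM in MP_FOS replicates 1, 2 and 3 and 64.9, 80.0 and 101 CPM in CT replicates 1, 2 and 3. The diets overlapped, and the log2 fold change of −0.18 ± 0.24 (SE) was smaller than its error. Since ASS1 and OAT moved differently between libraries, the FPKM ratio of ASS1 to OAT was 3.82, 12.2 and 6.57 in the MP_FOS libraries and 2.50, 2.29 and 1.90 in the CT libraries.

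ARG2 (ENSGALG00000009519), the mitochondrial arginase, had 9, 5 and 5 reads in MP_FOS replicates 1, 2 and 3, and 18, 14 and 14 reads in CT replicates 1, 2 and 3. The summed reads were 19 in MP_FOS and 46 in CT, so the depth gives these values little precision. As CPM they were 0.537, 0.297 and 0.421 in MP_FOS and 1.08, 0.812 and 0.744 in CT, with no overlap. The log2 fold change was −1.05 ± 0.43 (SE). A filter of at least 1 CPM in 3 libraries removed the gene.

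GATM (ENSGALG00000023435), glycine amidinotransferase, had 6, 1 and 5 reads in MP_FOS replicates 1, 2 and 3 and 2, 1 and 3 reads in CT replicates 1, 2 and 3. Both replicates numbered 2 held a single read. A difference between the diets was not detectable at this depth.

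**Figure D2:**
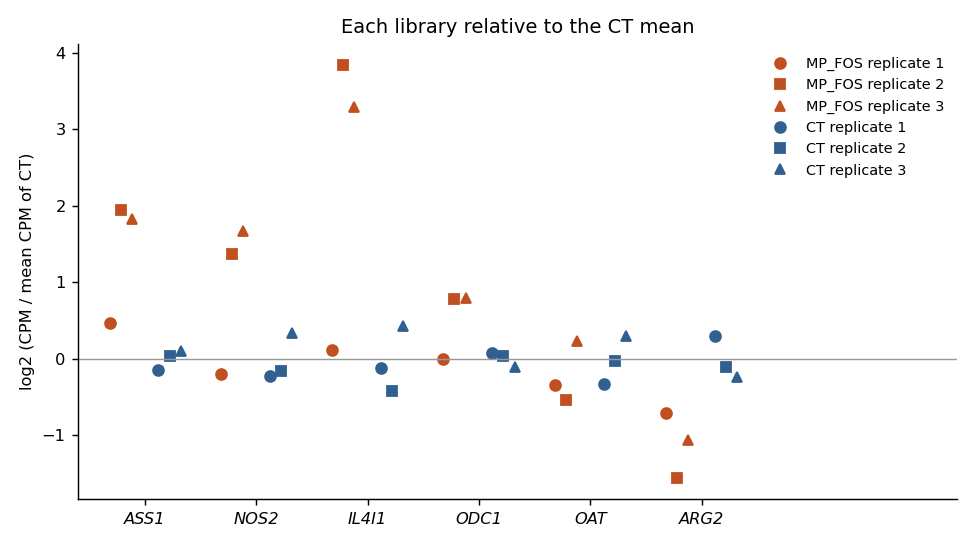
Log2 of each library's CPM over the mean CPM of CT (vertical axis; the line at 0 is the CT mean) for the 6 tested genes; orange symbols are MP_FOS and blue CT, with 1 symbol shape per replicate number. MP_FOS replicates 2 and 3 reach 3.85 and 3.30 for IL4I1 and 0.79 in both for ODC1, while MP_FOS replicate 1 lies between −0.20 and 0.46 for ASS1, NOS2, IL4I1 and ODC1.

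Ordered by FPKM, ASS1 was the most abundant of the 7 in both diets, at 251 ± 115 FPKM in MP_FOS and 90.3 ± 7.79 FPKM in CT (SD, n = 3 each). Its mean over the 6 libraries ranked 407th of the 13774 tested genes. OAT followed with 35.0 ± 11.1 FPKM in MP_FOS and 41.4 ± 9.42 in CT, and ODC1 with 29.1 ± 8.43 in MP_FOS and 20.6 ± 1.29 in CT. The ranges of OAT and ODC1 overlapped in MP_FOS and not in CT. NOS2 came next, at 9.62 ± 5.35 FPKM in MP_FOS and 4.57 ± 1.08 in CT, followed by IL4I1, at 7.23 ± 5.70 FPKM in MP_FOS and 0.910 ± 0.291 in CT. NOS2 and IL4I1 overlapped in MP_FOS, where both had wide SDs, and in CT it was IL4I1 and ARG2 (0.660 ± 0.139 FPKM) that overlapped. ARG2 had 0.30 ± 0.0854 FPKM in MP_FOS. GATM was last, at 0.130 ± 0.0889 FPKM in MP_FOS and 0.0567 ± 0.0252 in CT. ASS1 made up 75.5% of the mean FPKM summed over the 7 genes in MP_FOS and 57.0% in CT.

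**Figure D3:**
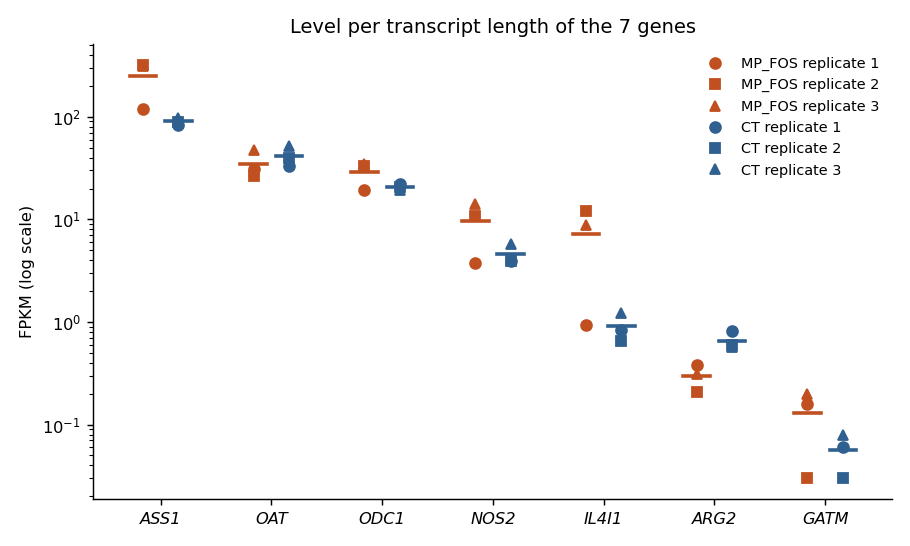
FPKM (vertical axis, log scale) of the 7 genes in the 6 libraries, ordered by their CT mean; orange is MP_FOS, to the left of CT in blue, and short lines are means over 3 libraries. The genes span from ASS1 at 251 FPKM in MP_FOS down to GATM at 0.130 FPKM in MP_FOS, and IL4I1 stands next to ARG2 in CT but near NOS2 in MP_FOS replicates 2 and 3.

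The pathway annotation in the table places ASS1, NOS2 and ARG2 in arginine biosynthesis and NOS2, ARG2, ODC1, OAT and GATM in arginine and proline metabolism. Over the 16 tested genes of the first map the median log2 fold change was 0.05, and over the 38 of the second 0.03, near the 0.01 of all tested genes. IL4I1 belongs to the tryptophan map (29 tested, median −0.15), the phenylalanine map (12 tested, −0.13) and the tyrosine map (21 tested, −0.13). It also belongs to the map of phenylalanine, tyrosine and tryptophan biosynthesis (4 tested, all 4 higher, 0.69), where 51.5% of all tested genes were higher. All these maps include the members themselves, and IL4I1, at 3.06, is 1 of those 4. As the members were chosen on this contrast, nothing is read from the map values.

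The neighbours of the 7 genes were followed in 9 lists with 101 tested genes, of which 56 were higher and 45 lower in MP_FOS. None passed edgeR over all genes (smallest adjusted p = 0.445, BH), 18 had an unadjusted p under 0.05 (17.8%, against 10.6% of all tested genes), and 18 did not overlap between the diets (17.8%, against 16.7%). Of the 18 at an unadjusted p under 0.05, 7 were in the list of inducers of NOS2 and IDO1. The lists were chosen with earlier results of these data known, so nothing is read from these gaps. DESeq2 called GCH1 (adjusted p = 0.0362), DDC (0.00456) and SOCS3 (0.000163, BH), where it called 0.762% of all tested genes. Nothing is read from these calls either, for the same reason. All genes named from the lists are therefore given as values with the SE of edgeR's fit. They are the 2 with the smallest unadjusted p and the 1 with the highest FPKM in each list, unless said otherwise.

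Other enzymes of arginine, ornithine and proline did not lean to one side, 8 of the 16 tested being higher and 8 lower, with a median of 0.00 (log2 fold change). NOS1, the neuronal nitric oxide synthase, had a log2 fold change of −1.04 ± 0.42, opposite in sign to that of NOS2. Its libraries did not mirror those of NOS2, since MP_FOS replicate 1 lay inside the CT range for NOS2 and below it for NOS1. NOS1 had 3.70, 6.06 and 2.02 CPM in MP_FOS replicates 1, 2 and 3 and 7.63, 6.09 and 10.7 CPM in CT replicates 1, 2 and 3. The highest MP_FOS library and the lowest CT library differed by less than 1 read's worth of CPM. The gene listed as PRMT1, an arginine methyltransferase, averaged 19.8 ± 4.91 CPM in MP_FOS and 14.0 ± 0.435 CPM in CT. The table labels it PRMT8 and only its NCBI identifier gives PRMT1, so which of the 2 it is was not settled. GLUL, glutamine synthetase, had the highest FPKM, 51.8 ± 10.04 in MP_FOS and 75.1 ± 35.3 in CT.

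Genes for tetrahydrobiopterin, the cofactor that nitric oxide synthases need, had a median log2 fold change of 0.10 over 7 tested members (4 higher). GCH1, GTP cyclohydrolase, the first and rate-limiting enzyme of that synthesis, had 49.97, 74.8 and 83.4 CPM in MP_FOS replicates 1, 2 and 3 and 35.2, 43.4 and 28.9 CPM in CT replicates 1, 2 and 3. Every MP_FOS library exceeded every CT library, replicate 1 again being the nearest to CT, and the log2 fold change was 0.95 ± 0.23. PTS, the enzyme of the next step, averaged 27.7 ± 6.58 CPM in MP_FOS and 18.5 ± 2.84 CPM in CT. With single libraries left out, the list median lay between −0.0423 (without CT replicate 2) and 0.38 (without CT replicate 1), below 0 in 4 of 6 cases.

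Of the polyamine genes other than ODC1, 8 of 13 tested were higher and 5 lower (median log2 fold change 0.03), with none at an unadjusted p under 0.05. OAZ1, the antizyme that directs ODC1 to degradation, averaged 268 ± 39.8 CPM in MP_FOS and 223 ± 6.81 CPM in CT. SRM, spermidine synthase, averaged 37.7 ± 10.6 CPM in MP_FOS and 29.6 ± 5.19 CPM in CT. SAT1, which acetylates polyamines for export or breakdown, had the highest FPKM, at 578 ± 220 in MP_FOS and 592 ± 115 in CT. The creatine list was higher in 2 of 4 tested cases (median 0.02): GAMT, which completes the synthesis that GATM starts, had 0.896 ± 0.211 CPM in MP_FOS and 1.61 ± 0.636 CPM in CT, and CKMT1A, a mitochondrial creatine kinase, had 451 ± 147 CPM in MP_FOS and 377 ± 37.7 CPM in CT. The medians of the arginine enzyme and creatine lists were below 0 with upper-quartile factors (−0.04 and −0.03) and on log2(FPKM + 1) (−0.09 and −0.08), and that of the polyamine list was −0.0776 on the FPKM scale. The median over all tested genes was also below 0 there, at −0.03 with upper-quartile factors and −0.06 on log2(FPKM + 1).

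Tryptophan and kynurenine genes were lower in 8 of 14 tested cases (median log2 fold change −0.28). DDC, the decarboxylase that makes serotonin and dopamine, had 29.7, 21.5 and 31.8 CPM in MP_FOS replicates 1, 2 and 3 and 56.0, 67.8 and 46.5 CPM in CT replicates 1, 2 and 3, with no overlap and MP_FOS replicate 1 among the low libraries. Its log2 fold change was −1.04 ± 0.20, and the smallest unadjusted p of all 9 lists was its own (edgeR, 0.00114; adjusted p = 0.445, BH). MAOB, a monoamine oxidase, averaged 9.12 ± 1.46 CPM in MP_FOS and 14.7 ± 2.44 CPM in CT, also without overlap, and MAOA, the other one, had 106 ± 28.1 FPKM in MP_FOS and 154 ± 38.6 FPKM in CT. IDO2 was at 0 counts in all 6 libraries, which allows up to 0.159 to 0.253 CPM per library (3 counts, counting error only), and TDO2, the liver enzyme of the same step, was at or below 0.337 CPM. Neither was picked by the rule for named genes.

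In the aryl hydrocarbon receptor list, whose receptor binds indole and kynurenine products of tryptophan, 6 of 8 tested members were lower (median log2 fold change −0.19). AHR averaged 66.2 ± 4.55 CPM in MP_FOS and 77.4 ± 1.08 CPM in CT, and TIPARP, a target of the receptor that represses it, 71.2 ± 7.45 CPM in MP_FOS and 55.3 ± 0.651 CPM in CT. NQO1, a quinone reductase, averaged 77.7 ± 28.6 FPKM in MP_FOS and 105 ± 9.99 FPKM in CT. Of the phenylalanine and tyrosine genes 8 of 10 tested were higher (median 0.14), with none at an unadjusted p under 0.05: FAHD1 had 33.3 ± 6.31 CPM in MP_FOS and 25.5 ± 3.69 CPM in CT, TAT, tyrosine aminotransferase, 1.18 ± 0.859 CPM in MP_FOS and 0.498 ± 0.116 CPM in CT, and MIF, a cytokine with tautomerase activity, 106 ± 18.4 FPKM in MP_FOS and 124 ± 27.8 FPKM in CT. TAT had 8, 36 and 11 reads in MP_FOS replicates 1, 2 and 3 and 10, 9 and 7 reads in CT replicates 1, 2 and 3. Its MP_FOS mean thus rested largely on replicate 2, at low depth. Without MP_FOS replicate 2 the median of the phenylalanine and tyrosine list was −0.08.

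Carriers of arginine, ornithine and aromatic amino acids were higher in 6 of 13 tested cases (median log2 fold change −0.17). SLC7A2, a cationic amino acid carrier that in mammals feeds arginine to NOS2 and arginase, had 1.19, 1.13 and 1.601 CPM in MP_FOS replicates 1, 2 and 3 and 4.14, 2.55 and 2.98 CPM in CT replicates 1, 2 and 3. The diets did not overlap, replicate 1 of MP_FOS was as low as replicate 2, and the log2 fold change was −1.30 ± 0.33. SLC36A1, a proton-coupled amino acid carrier, averaged 59.8 ± 7.88 CPM in MP_FOS and 42.2 ± 1.25 CPM in CT, and SLC6A19, the main neutral amino acid carrier of the brush border, 674 ± 224 FPKM in MP_FOS and 789 ± 301 FPKM in CT. The list median was above 0 without MP_FOS replicate 2 (0.03) or CT replicate 2 (0.0704).

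The last list held cytokine and signalling genes that in mammals induce or restrain NOS2 and IDO1. Of its 16 tested members 12 were higher in MP_FOS (median log2 fold change 0.49), where 51.5% of all tested genes were higher. At an unadjusted p under 0.05 (edgeR) were 7 members, against 10.6% of all tested genes. This list too was chosen with earlier results of these data known, so nothing is read from those gaps. SOCS3, a feedback inhibitor of cytokine receptors, had 125, 509 and 245 CPM in MP_FOS replicates 1, 2 and 3, and 45.0, 53.5 and 76.3 CPM in CT replicates 1, 2 and 3. No MP_FOS library fell within the CT range, and the log2 fold change was 2.33 ± 0.50. IRF1, a transcription factor downstream of interferon gamma, had 301, 686 and 735 CPM in MP_FOS replicates 1, 2 and 3 and 255, 260 and 323 CPM in CT replicates 1, 2 and 3, so that MP_FOS replicate 1 lay within the CT range, as it did for NOS2 and IL4I1. Relative to CT means and taken library by library, the median of the list (log2) came to 0.02 in MP_FOS replicate 1, 0.82 in replicate 2 and 0.66 in replicate 3, and to −0.11, −0.05 and 0.08 in the CT libraries. Without MP_FOS replicate 1 the list's median log2 fold change was 0.98, and 223 of all 14002 genes tested in that fit passed edgeR. Among the 223 were the list members IRF1, IRF8, MYD88, SOCS1 and SOCS3 (adjusted p from 0.0287 to 0.0493, BH), and also GCH1 (0.0476). In each of these 6 genes, replicate 1 had the lowest value of the MP_FOS libraries, so leaving it out widens the difference.

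**Figure D4:**
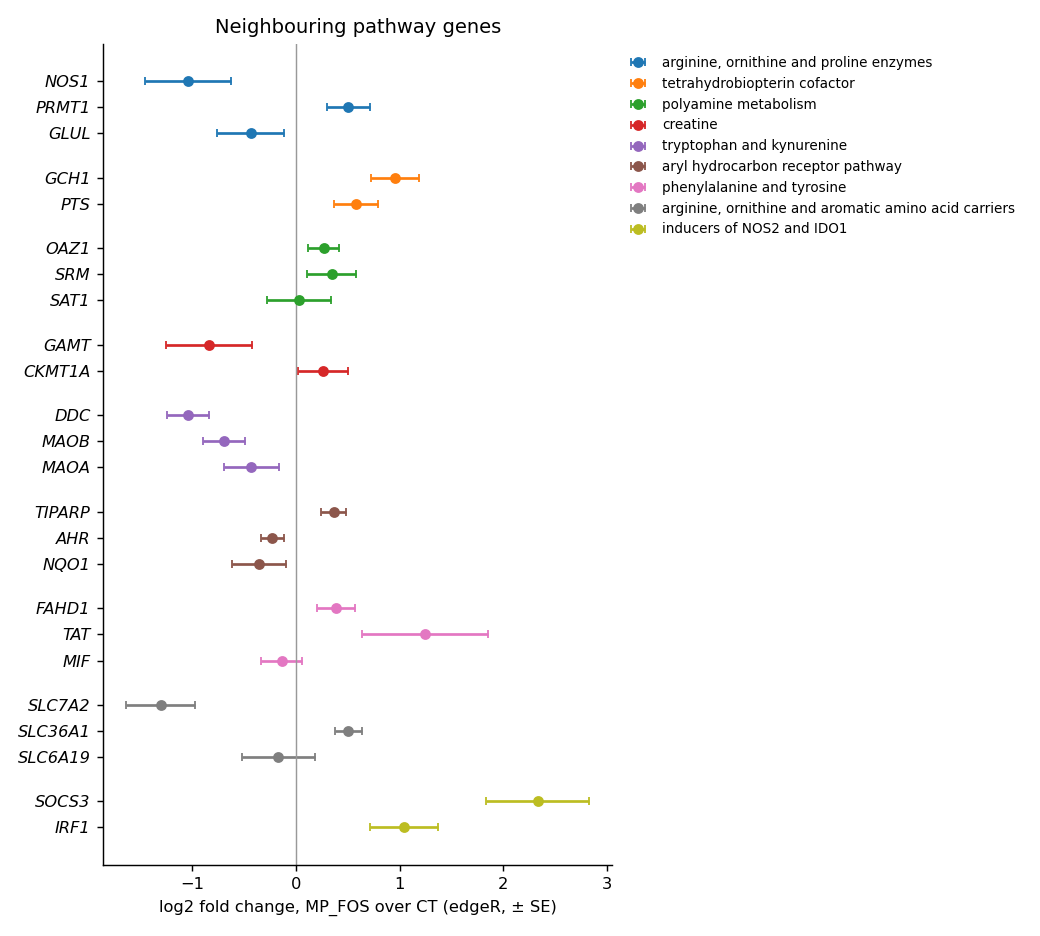
Log2 fold change of MP_FOS over CT from edgeR (horizontal axis; whiskers ± SE, 3 libraries per diet) for the 24 genes named by rule from the 9 lists (colours). SOCS3 at 2.33 lies farthest right and SLC7A2 at −1.30 farthest left, and none of the 24 passed edgeR at an adjusted p of 0.05, while DESeq2 called GCH1, DDC and SOCS3.

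Markers of the cells that could carry these enzymes were read in the same libraries. The 12 macrophage and dendritic cell markers were all above 0, and 6 of 12 were higher (median log2 fold change −0.02). Their summed level was 863, 971 and 1030 FPKM in MP_FOS replicates 1, 2 and 3 and 864, 668 and 788 FPKM in CT replicates 1, 2 and 3. CTSS was the largest part, at 528, 584 and 632 FPKM in MP_FOS and 463, 398 and 406 in CT. CSF1R did not follow it, at 42.28, 34.62 and 33.61 FPKM in MP_FOS and 46.02, 34.26 and 42.25 in CT. Others moved as well: the log2 fold changes were 0.38, 0.73 and 0.80 for C1QA, C1QB and C1QC, and −1.03 for LY86. All these macrophage and dendritic cell markers were named after their values were seen. The 5 heterophil markers found summed to 262, 542 and 631 FPKM in MP_FOS replicates 1, 2 and 3 and 274, 97.1 and 241 FPKM in CT replicates 1, 2 and 3. All 4 tested members had log2 fold changes above 0. The sum was high in MP_FOS replicates 2 and 3 through RSFR and LYG2. RSFR, listed under the symbol RNASE4 and matched by its NCBI identifier, had 226, 344 and 540 FPKM in MP_FOS and 236, 71.7 and 208 in CT. LYG2 had 2.90, 170 and 60.1 FPKM in MP_FOS and 5.53, 5.31 and 2.35 in CT. CSF3R did not follow it, at 28.1, 21.7 and 20.3 FPKM in MP_FOS and 30.1, 15.4 and 25.8 in CT (log2 fold change 0.06 ± 0.25, SE). These 3 markers were named after their values were seen. The 10 enterocyte markers summed to 11860, 7829 and 5684 FPKM in MP_FOS and 9975, 10530 and 8425 FPKM in CT. The sum was lowest in MP_FOS replicates 2 and 3, although 7 of the 10 had log2 fold changes above 0. FABP6, the largest part of each CT sum, had 5175, 1455 and 1003 FPKM in MP_FOS and 4617, 3994 and 3632 in CT. EPCAM did not follow it, at 1125, 1507 and 1287 FPKM in MP_FOS and 988, 1182 and 877 in CT. FABP6 and EPCAM were also named after their values were seen. T and NK cell markers summed to 823 to 1146 FPKM in MP_FOS and 712 to 868 FPKM in CT. Of these markers 4 were higher and 4 lower (median log2 fold change 0.02). GZMA had 164, 546 and 641.5 FPKM in MP_FOS and 109, 303 and 127 in CT. CD3D went the other way in replicates 2 and 3, at 303, 151 and 155.5 FPKM in MP_FOS and 265, 250 and 269 in CT. GZMA and CD3D were named after their values were seen. B and plasma cell markers ran from 497 to 807 FPKM in MP_FOS and from 499 to 875 FPKM in CT. Of the 6 tested, 1 was higher and 5 lower (median log2 fold change −0.59). JCHAIN was the largest part of the sum, at 468.6, 455.2 and 766.5 FPKM in MP_FOS and 764, 462.4 and 835.9 in CT. JCHAIN was also named after its values were seen. Fibroblast markers ran from 741 to 961 FPKM in MP_FOS and from 1089 to 1097 FPKM in CT, 1 being higher and 6 lower (median −0.35). Endothelial markers ran from 63.4 to 91.0 FPKM in MP_FOS and from 113 to 118 FPKM in CT, 0 being higher and 6 lower (median −0.50). Over all tested genes 51.5% were higher. Smooth muscle markers ran from 2394 to 4083 FPKM in MP_FOS and from 2674 to 4036 FPKM in CT. No marker was at 0 in all libraries. The part of these cell types in the values of the 7 genes was not tested.

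For each tested member, the 3 genes with the most similar profile over the 6 libraries were found by Pearson's r of log2 CPM among about 9444 genes with a symbol and at least 5 CPM. With 6 libraries and so many genes a high r is common, and 174, 94, 197 and 205 genes had an r above 0.95 with ASS1, NOS2, IL4I1 and ODC1, against 7 with OAT and 46 with ARG2. The closest to ASS1 were RNFT1 (r = 0.996), VPS29 (0.993) and FUT9 (0.992), and the closest to NOS2 were SPDEF (0.994), TNFSF15 (0.993) and SAMHD1 (0.993). IL4I1 was matched by NSUN5 (0.999), OGFR (0.999) and B3GNT7 (0.996), and ODC1 by ERMP1 (0.998), IFI27L1 (0.997) and FAM3C (0.996). B3GNT7 had 83.3, 604 and 362 CPM in MP_FOS replicates 1, 2 and 3 and 73.2, 57.3 and 83.1 CPM in CT replicates 1, 2 and 3, the same order of libraries as IL4I1 at its top. ARG2 was closest to TF (0.995), ATP10D (0.994) and MGAT5 (0.989), and OAT to ASCC1 (0.993), TSPOAP1 (0.979) and WFDC1 (0.976). The profile of ARG2 rests on 5 to 18 reads in a library, so its matches carry much counting error.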

How the data were processed

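The deposited gene table holds 6 columns of estimated counts and 6 of FPKM, both computed by the authors before deposit, per the file headers. Of the estimated counts as deposited, 7.98% were not whole. Per the submitters' processing notes, fastp 0.18.0, Bowtie2, HISAT2, StringTie 1.3.1 and DESeq2 were used, without their roles. Per the labels, a small RNA kit was used on total RNA. The genome build, the strand setting and the read counter were not given in the sources used here.

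After rounding, MP_FOS was compared with CT by edgeR 4.0.16 under R 4.3.3 (filterByExpr by group, TMM, quasi-likelihood F test, two-sided) with BH adjustment over all tested genes. The SE is the absolute log2 fold change over the square root of F. DESeq2 1.42.0 and limma 3.58.1 served as other tools, and the code was tested on simulated data. Genes were matched by the table's symbol or, failing that, the reference symbol of their NCBI identifier.

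The members and lists were chosen with earlier results of these data known. The rule for named genes took all members, the 2 genes of smallest unadjusted p and the 1 of highest FPKM per list, and the 3 most similar genes per tested member. Promoter motifs were not analysed here. A further result for a gene of the lists is not reported here.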

Additional observations from a re-analysis of the deposited data

How the results depend on the processing

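Over 16 alternatives, the log2 fold changes of the 6 tested members kept their sign, OAT only just at −0.0011 without CT replicate 3. Of 95 values 94 moved by less than 1 SD between replicates, and ARG2 on log2(FPKM + 1) was −0.35. That SD was wide for some members. For IL4I1 it was 1.42, so a move from 3.06 to 1.72 counted as within it. All alternatives reused the libraries on which the members were chosen, so the kept signs are no separate evidence. The count of genes passing was 105 with DESeq2 and 1 without both replicates numbered 2, which had at most 3 reads of Wpkci-7, and with 1 library left out it ran from 0 to 223 (without MP_FOS replicate 1), otherwise 0. Of 144 list medians 129 moved by less than 1 SD. Without those 2 libraries, the medians were −0.14 for arginine, ornithine and proline enzymes, −0.068 for tetrahydrobiopterin and 0.043 for carriers. On log2(FPKM + 1) and log2(FPKM + 0.1) the polyamine median was −0.0776 and −0.0785, where all genes had medians of −0.06 and −0.07, and the aryl hydrocarbon receptor median was −0.27 on the second scale. With no filter the tryptophan median was 0.0741. Leaving out single libraries gave medians from −0.14 to 0.0686 (arginine enzymes), −0.0423 to 0.38 (tetrahydrobiopterin), −0.30 to 0.0704 (carriers) and 0.40 to 0.98 (the signalling genes). The cause of these moves was not tested. Same-numbered libraries of the diets had an r of deviations across genes of 0.02, 0.28 and 0.16, and differently numbered ones from −0.23 to 0.12. Both replicates numbered 2 also lacked all but a few reads of Wpkci-7. Whether the numbers pair the samples is not said by the labels and was not settled here. With the replicate number as a block (replicate block) 0 genes passed, as without it, 1179 had an unadjusted p under 0.05, and IL4I1 had a log2 fold change of 2.58. The 19 and 46 reads of ARG2 and 12 and 6 of GATM in MP_FOS and CT limit what depth can show.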
